A study of Mus musculus with 8 samples.

Results

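Open chromatin was examined by ATAC-seq at 10 genes of the NF-kB pathway in medullary thymic epithelial cells (mTECs) of wild-type BL6N6 mice aged 4 to 6 weeks. The genes were the 5 Rel-family subunits Rela, Relb, Rel, Nfkb1 and Nfkb2, the receptors Tnfrsf11a, Cd40 and Ltbr, and the signal transducers Traf6 and Map3k14. They were taken as a named list, and every region of the deposited set that overlapped a gene body or the 20 kb on either side of it was kept. This gave 72 of 57124 regions, and the 10 genes stand among 21938 annotated protein-coding genes. The cells were sorted from the thymus as CD45-negative, EpCAM-positive and CDR1-negative, and then by the tetraspanin Tspan8 (Tspan8neg or Tspan8pos) and by MHC class II (MHCIIlow or MHCIIhigh), with 2 samples in each of the 4 resulting groups. Whether animals were pooled is not given in the sources used here. The region set belongs to all 8 samples together, so the values below describe where chromatin was called open in at least some of the material and say nothing about a single group. Each region has 1 start and 1 width, with no replicate error, and no test was run.

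NF-kB is a family of dimeric transcription factors. In the canonical branch a signal frees dimers of RelA or c-Rel with p50 from their inhibitors, and in the non-canonical branch the kinase NIK, the product of Map3k14, brings about processing of p100, the product of Nfkb2, so that p52 enters the nucleus with RelB. In the thymus RANK (Tnfrsf11a), CD40 and the lymphotoxin beta receptor (Ltbr) receive ligands from thymocytes and other haematopoietic cells and drive the growth and maturation of mTECs, and loss of RelB, NIK or TRAF6 is known to disturb the medulla.

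The labelled cell type was set against marker genes. A region covered a transcription start of 8 of 8 thymic epithelial genes, namely Epcam, Krt5, Krt14, Krt8, Foxn1, Aire, Cldn3 and Cldn4, and of 0 of 8 thymocyte genes. Of the cortical epithelial genes 3 of 4 had one, and the one without was Psmb11. A start was also covered in 1 of 5 fibroblast genes (Pdgfra), 1 of 4 endothelial genes (Kdr) and 1 of 5 genes of dendritic cells or macrophages (Flt3). Of all protein-coding genes 56.4% had a region over a start. What these markers contributed to the regions described here was not tested.

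All 10 genes had a region over a transcription start, compared with 56.4% of all protein-coding genes. By the narrower rule that the centre of the region lie between 1000 bases upstream and 100 bases downstream of a start, 7 of 10 genes had a promoter region, compared with 48.6% of all protein-coding genes. The genes that met only the first rule were Relb, Nfkb1 and Traf6, whose regions were wide and displaced into the gene, with centres 482, 267 and 212 bases from the nearest start. Start regions were widest at the Rel-family genes. The region over the start of Relb measured 1297 bases, that of Nfkb1 989, that of Rela 912, that of Rel 888 and that of Nfkb2 764. The transducers followed with 750 bases at Traf6 and 687 at Map3k14. The receptors had 656 bases at Ltbr, 505 at Cd40 and 461 at Tnfrsf11a. The 5 subunit genes thus lay above the other 5 in width, although Nfkb2 and Traf6 differed by only 14 bases. Over all protein-coding genes with a start region the median width was 609 bases (quartiles 441 and 813), and the median of the 10 genes was 757. Of all start regions, 97.4% were narrower than that of Relb and 27.9% were narrower than that of Tnfrsf11a.

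**Figure D1:**
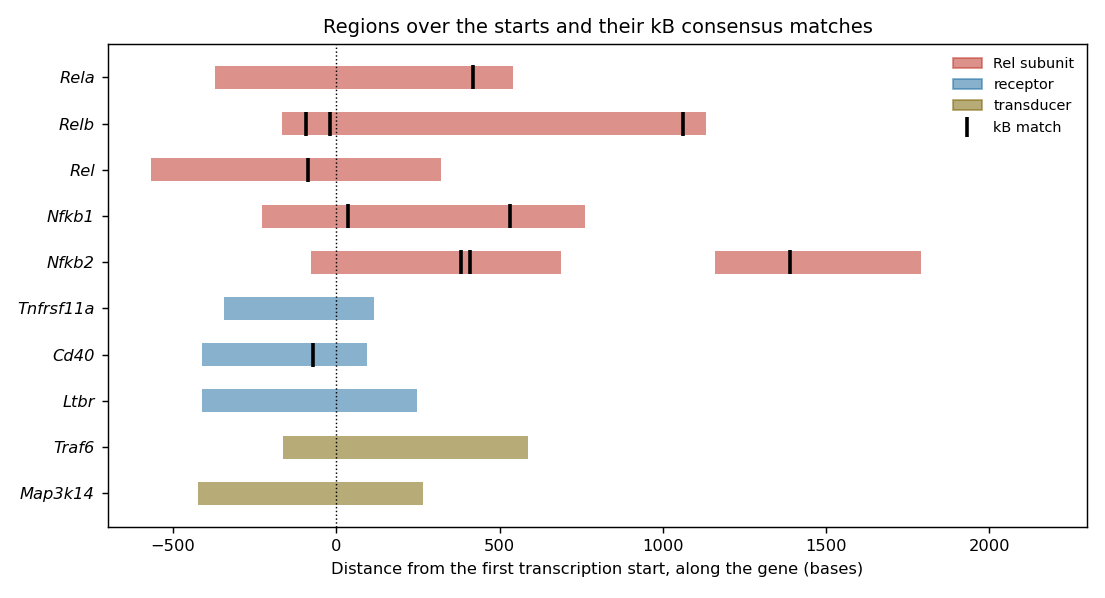
Regions over the starts of the 10 genes, drawn as bars along the distance from the first transcription start in bases and coloured by role, with black ticks at matches to the kB consensus. The bar of Relb reaches 1130 bases into the gene, Nfkb2 has a second region, and ticks fall in all 5 Rel-family genes and in Cd40 but in none of Tnfrsf11a, Ltbr, Traf6 and Map3k14.

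The start regions also differed in how they sat on the gene. That of Relb reached 166 bases upstream and 1130 bases downstream of the start, and that of Nfkb1 reached 227 and 761 bases. Those of Rel, Tnfrsf11a, Cd40, Ltbr and Map3k14 reached farther upstream than downstream, with 566 against 321 bases at Rel and 410 against 94 at Cd40. In all, 5 of the 10 reached farther downstream than upstream, compared with 61.6% of all genes with a start region. GC content was 57.8% at Cd40 and between 62.3% at Nfkb2 and 75.8% at Nfkb1 in the other 9. The ratio of observed to expected CpG, which is high in CpG islands, was 0.309 at Cd40, while the others ranged from 0.604 at Ltbr to 0.928 at Rel. The median over all start regions was 0.812 (quartiles 0.702 and 0.906), so Cd40, Ltbr and Nfkb2 (0.609) lay below the lower quartile, and Cd40 had the lowest ratio of the 10.

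NF-kB dimers bind a sequence called the kB site. The start regions were therefore searched on both strands for the NF-kB consensus, the word of 10 letters GGGRNWYYCC. In it R is A or G, N is any base, W is A or T, and Y is C or T. Overlapping matches were counted as 1 site. When the whole region was searched, 7 of the 11 regions at a member's own start or promoter held a site (63.6%). These were the 6 regions at the 5 Rel-family genes and the region at Cd40. Among all 14810 promoter or start regions of the set 13.6% held one. Wide regions offer more sequence, and among promoter or start regions within 10% of the same width the share lay between 11.3% and 29.5% for these 11 regions, with a mean of 18.0%, a comparison added after the widths had been seen. In the central 200 bases alone, where all regions offer the same length, 4 of the 11 held a site, at Rel, Cd40 and both regions of Nfkb2, compared with 5.06% of promoter or start regions. A match describes letters in the sequence and does not show binding.

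The 120 bases just upstream of the first start are shown for the 3 genes with a site there, and for Tnfrsf11a and Ltbr, the other receptors, where none was found. They are written 5′ to 3′ on the strand of the gene from the RefSeq copy of GRCm38.p6, the assembly behind mm10, and capitals mark the match. The windows lie at chr7:19629439-19629558 (minus strand) for Relb, chr11:23770971-23771090 (minus) for Rel, chr2:165055507-165055626 (plus) for Cd40, chr1:105780598-105780717 (plus) for Tnfrsf11a and chr6:125313886-125314005 (minus) for Ltbr.
Relb: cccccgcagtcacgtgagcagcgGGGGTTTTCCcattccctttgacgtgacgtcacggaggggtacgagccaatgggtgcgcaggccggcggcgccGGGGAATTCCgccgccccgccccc
Rel: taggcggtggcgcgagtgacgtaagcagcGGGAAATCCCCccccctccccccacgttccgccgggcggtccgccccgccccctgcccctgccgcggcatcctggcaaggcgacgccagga
Cd40: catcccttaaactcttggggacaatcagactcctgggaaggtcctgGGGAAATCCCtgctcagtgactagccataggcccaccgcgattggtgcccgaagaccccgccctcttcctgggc
Tnfrsf11a: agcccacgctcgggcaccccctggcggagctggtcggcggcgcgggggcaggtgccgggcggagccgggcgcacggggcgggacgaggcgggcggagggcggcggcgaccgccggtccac
Ltbr: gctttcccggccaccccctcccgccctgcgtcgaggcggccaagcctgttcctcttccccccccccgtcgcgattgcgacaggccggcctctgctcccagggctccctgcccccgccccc

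Relb had 2 sites in this window, centred at -92 and -19 from the start, and a further site in an intron, 1063 bases into the gene. The sites of Rel and Cd40 share the letters GGGAAATCCC and lay at -86 and -70. Both read as a match on either strand. The 3 upstream windows therefore held 4 sites within 100 bases of a start.

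In Nfkb2, Nfkb1 and Rela the sites lay downstream of the first start, and they are shown with 9 bases on either side. The first 2 sites of Nfkb2, at chr19:46304698-46304708 and chr19:46304726-46304735, lay in UTR sequence and at -41 and -14 from a later annotated start of the gene. The last, at chr19:46305705-46305714, also lay in UTR sequence, 13 bases past another start. The site of Nfkb1 at chr3:135691507-135691516 lay in the UTR, 35 bases from the start, and a second at chr3:135691010-135691019 lay in an intron. That of Rela at chr19:5637898-5637907 lay in an intron, 419 bases from the start.
Nfkb2 first: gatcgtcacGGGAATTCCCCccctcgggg
Nfkb2 second: gggccgaaaGGGGCTTTCCcggctggag
Nfkb2 last: ggtattttcGGGACTTTCCtaagcagca
Nfkb1 first: gacgtcagtGGGAATTTCCagccaggaa
Nfkb1 second: gggactaggGGAGAGCCCCaagcaggag
Rela: gcctgcggcGGAATCTCCCccctccccg

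Written on the strand of the gene, 4 of these 6 sites begin with GGG. The other pair, the second of Nfkb1 and that of Rela, match the consensus on the opposite strand. The word GGGACTTTCC of the last Nfkb2 site occurred once more at the 10 genes, in an intronic region of Nfkb1.

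Promoters as RefSeq defines them, 250 bases before to 50 after a start in GRCm38.p6, were also searched, since they are set without use of the regions. Of the 10 genes 7 had such windows, 9 in all, and those without an entry were Relb, Nfkb1 and Cd40. A kB match was present in 4 of the 9 windows, 3 of Nfkb2 and 1 of Rel, compared with 4.51% of all 32851 windows. The matches are sites already shown above, so this count is not a separate check of them, and they come from Nfkb2 and Rel alone. Of the Nfkb2 windows 2 overlap and share the last of the sites shown above. The windows of Rela, Tnfrsf11a, Ltbr, Traf6 and Map3k14 held none.

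The loci as a whole held between 3 regions at Traf6 and 19 at Nfkb1, with a median of 6, while the median over all protein-coding genes was 3 (quartiles 1 and 5). Since long genes have wide windows, regions per 10 kb were also compared. Nfkb2 had the highest density with 1.46, followed by Nfkb1 with 1.29, Tnfrsf11a with 1.03, Rel with 0.944, Map3k14 with 0.912, Ltbr with 0.845, Relb with 0.791, Rela with 0.790, Cd40 with 0.698 and Traf6 with 0.474. All 10 lay above the median of all protein-coding genes, 0.386. Against the 12366 genes with a region over a start, whose median was 0.511, 9 of 10 lay above the median and Traf6 lay below it. Regions covered 6.24% of the window of Nfkb2 and 1.79% of that of Traf6, compared with a median of 1.35% over all genes. These values include regions of neighbouring genes. Of the 7 regions in the window of Nfkb2, 4 lay downstream of the gene, 3 of them at starts or promoters of other genes. In the gene body alone, which is 8066 bases long and held 3 regions, its density was 3.72 per 10 kb, the highest of the 10.

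**Figure D2:**
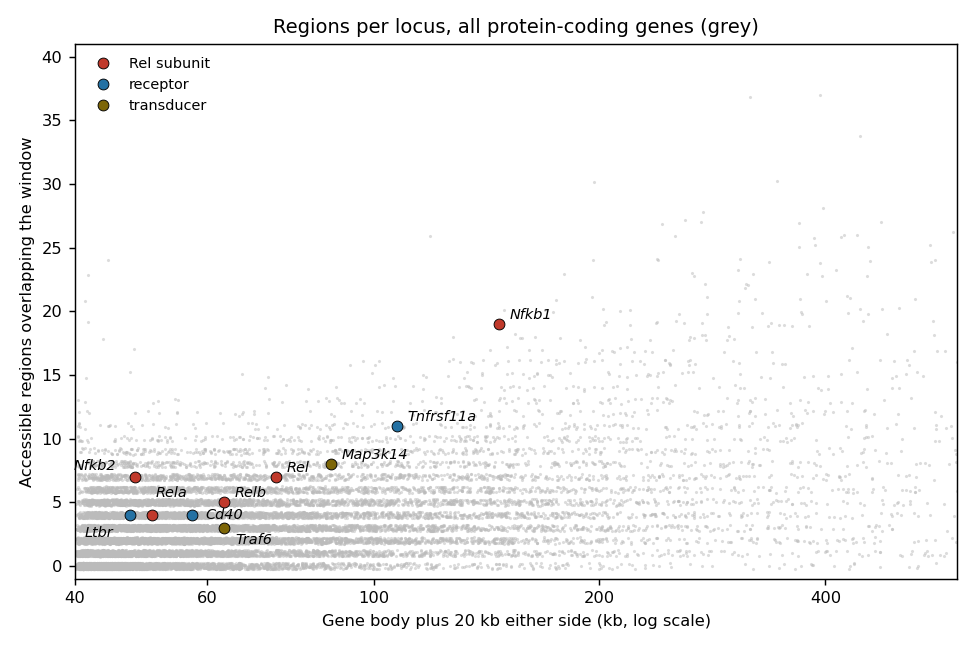
Number of accessible regions overlapping the gene body plus 20 kb either side, against the length of that window in kb on a log scale, for protein-coding genes in grey (spread slightly up and down) and the 10 genes in colour by role. Nfkb1 with 19 regions and Tnfrsf11a with 11 sit above most genes of similar length, Traf6 with 3 sits among them, and 187 genes lie outside the axes.

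By position, 11 of the 72 regions lay at a member's own start or promoter, 30 lay elsewhere inside the gene, 24 lay in the flanks and 7 lay at the start or promoter of another gene. Regions at the members' own starts had a median width of 750 bases, compared with 204.5 bases inside the genes, 208 in the upstream and 157.5 in the downstream flanks. Of the 18 regions of 500 bases or more, 10 covered a member's start. Of the 30 regions inside the genes, 24 were intronic and 6 overlapped an exon.

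**Figure D3:**
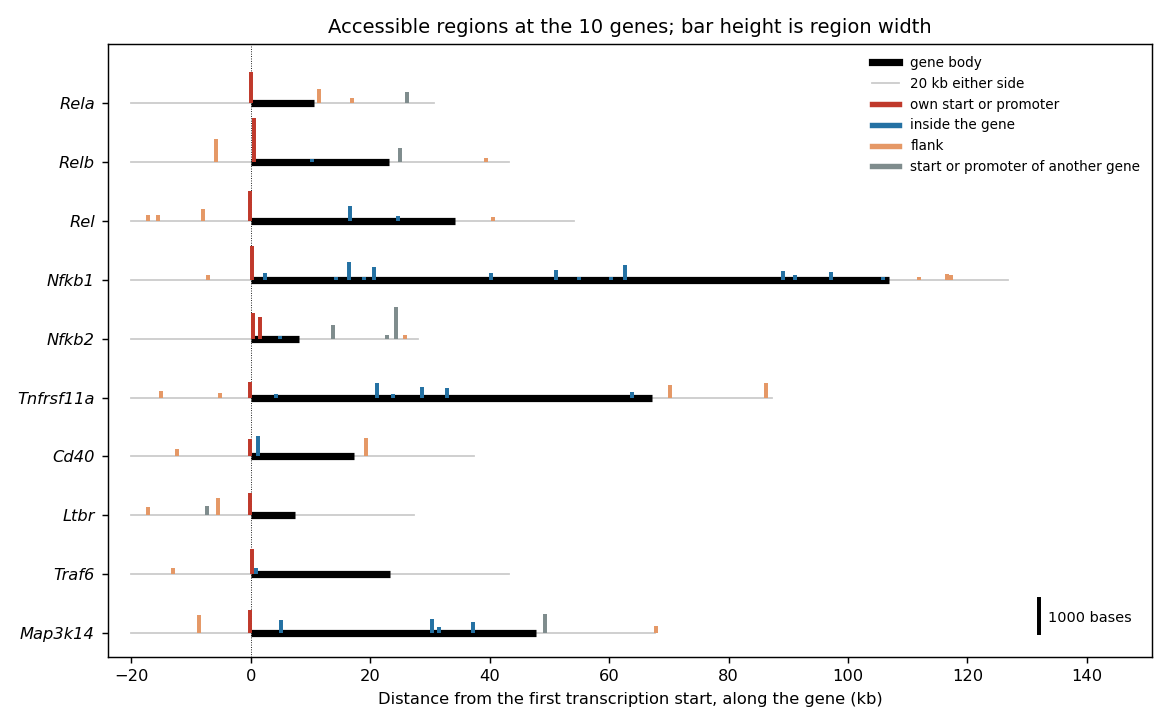
The 72 regions at the 10 genes along the distance from the first transcription start in kb, with gene bodies in black and the flanks of 20 kb in grey. Bar height is region width in bases (scale bar 1000 bases), and colour is position; regions inside the gene are many in Nfkb1 (14) and Tnfrsf11a (6), while Rela and Ltbr have none away from the start.

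Among the Rel-family genes, Nfkb1, which encodes p105 and p50, was the richest. Its body of 106893 bases (chr3:135584655-135691547) held the start region and 14 others, 78 to 510 bases wide, centred from 2.4 to 105.9 kb into the gene. The widest of these, 510 bases, lay 16.5 kb from the start. Another, of 361 bases at 20.6 kb, held the word GGGACTTTCC, and one of 286 bases at 51.2 kb held GGGGTTTTCC. The gene for c-Rel, Rel (chr11:23736847-23770970), had 7 regions in its window. Those inside the gene measured 438 bases at 16.6 kb and 152 bases at 24.6 kb, and 3 lay upstream at -8.1, -15.6 and -17.2 kb. A kB site was present in the intronic region at 16.6 kb and in the region at -15.6 kb.

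The genes of the non-canonical pair differed in layout. Nfkb2 (chr19:46304320-46312385) had 2 regions at its starts, 764 and 628 bases wide and 473 bases apart, and a region of 87 bases over an exon at 4.9 kb. The other 4 regions in its window lay downstream, 3 of them at starts or promoters of Psd and Fbxl15. Relb (chr7:19606217-19629438) had the wide start region, a region of 81 bases in an intron and a region of 685 bases at -5.9 kb, inside the neighbouring gene Clptm1, that held 2 kB sites. Rela (chr19:5637483-5648130), which encodes the activating subunit of the canonical dimer, had no region inside the gene beyond that over its start. A region of 406 bases, 11.3 kb from the start and just past the end of the gene, held a kB site.

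Of the receptors, Tnfrsf11a had most regions. It lies at chr1:105780718-105847981, and its 11 regions were 98 to 461 bases wide, with 6 inside the gene, from 4.1 to 63.8 kb, and 2 in each flank. The intragenic regions of 418 bases at 21.1 kb, 319 bases at 28.6 kb and 281 bases at 32.9 kb were the widest of the 6. Although no kB site was found at its start, 3 other regions of this locus held one, at -5149, 21245 and 86231 bases from the start. Cd40 (chr2:165055627-165072948) had only 4 regions, and 3 of them held a kB site. These were the start region, a region of 601 bases in an intron 1.1 kb from the start and 728 bases from the start region, and a region of 544 bases at 19.2 kb, past the end of the gene. The intronic region was wider than the start region itself. Ltbr (chr6:125306571-125313885) had its start region and 3 regions upstream, the nearest of 513 bases at -5.4 kb, and none of its 4 regions held a kB site. The region at -7.4 kb lay at a promoter of Scnn1a, which encodes a subunit of the epithelial sodium channel.

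The transducers were unlike each other. Traf6 (chr2:101678429-101701669), a ubiquitin ligase used by RANK and CD40, had 3 regions. One lay upstream at -13 kb, and the other 2 lay over and just past the start, 259 bases apart. The remainder of its body and its downstream flank held none. The smaller of the pair, 196 bases wide, held a kB site. Map3k14 (chr11:103219762-103267472) had 8 regions, among them 4 inside the gene from 5 to 37.3 kb and one of 537 bases at -8.7 kb. A kB site was present in the region at -8.7 kb and in one of 407 bases at 30.4 kb.

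Over all 72 regions, 27 sites fell in 22 regions, 11 of the sites at the members' own starts or promoters and 16 elsewhere. The share of regions with a site was 30.6%, compared with 14.6% of all regions in the set. Among the 54 regions away from any start, 15 held a site (27.8%), compared with a mean of 16.7% for regions away from starts of similar width. In the central 200 bases the figures for these regions were 8 of 54 (14.8%) and 13.3%, and in the longest central window searched they were 13 of 54 (24.1%) and 18.2%. The share away from starts was thus close to that of the set in the central 200 bases. It lay above the compared share in the longest window and over whole regions of similar width. The 7 regions at starts or promoters of neighbouring genes (Sipa1, Clasrp, Psd, Fbxl15, Scnn1a and Spata32) held 0 sites, and regions of the same kind and similar width held one in 10.8% on average, so a count of 0 of 7 is near that share.

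Motifs of 3 other families were counted in the same central windows. The ETS word CCGGAAG was present in 0 of 11 regions at the members' own starts, compared with 10.3% of promoter or start regions, and in 4 of 72 regions in all (5.56%), compared with 3.84% of the set. The KLF word GGGNGTGG was present in 3 of 11, namely at Nfkb2, Cd40 and Ltbr, compared with 14.4%. The AP-1 word TGANTCA was present in 0 of 11 at starts, compared with 5%, and in 9 of 54 regions away from starts (16.7%), compared with 23.2%. Over whole regions the counts at the members' own starts were 1 of 11 for ETS (21.7% of promoter or start regions), 6 of 11 for KLF (33.8%) and 3 of 11 for AP-1 (10.6%). Away from starts AP-1 was then present in 15 of 54 regions (27.8%), compared with 25.1%, so for AP-1 the members lay below the set in the central window and above it over whole regions. With 11 regions at starts, these counts are small and were not tested, and the same holds for the counts of kB sites in those regions.

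The rest of the pathway was described from a list of 34 further genes. Of these, 29 had a region over a start (85.3%) and 26 had a promoter region by the centre rule (76.5%), read against the same background shares of 56.4% and 48.6%. A region over a start was present at all 11 adaptors and ubiquitin ligases and at all 7 genes of the TAK1 and IKK kinase complexes. It was also present at all 9 genes listed as inhibitors and at Tnfrsf11b, which encodes the decoy receptor osteoprotegerin. The role names are labels of the list, and a gene may also act in other ways. The widest promoter regions were those of Rnf31 with 1118 bases, Tab2 with 1079 and Traf5 with 973. Nfkbia, Tab1, Chuk and Ikbkb, like Relb, Nfkb1 and Traf6, had a region over a start but none by the centre rule. That of Nfkbia, which encodes the inhibitor IkBa, measured 1223 bases, wider than 96.0% of start regions.

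Among the 6 ligand genes, 1 had a region over a start, 2 had a promoter region by the centre rule and 3 had a region that reached within 1000 bases of a start, for which the share of all protein-coding genes was 63.1%. The region over a start was that of Tnfsf13b, which encodes BAFF, and measured 397 bases. Tnfsf11 (RANKL) had a promoter region of 77 bases, centred 94 bases from a start. The nearest centre lay 829 bases from a start of Ltb, 4998 from Lta, 25226 from Tnfsf14 and 48702 from Cd40lg. The receptor genes Tnfrsf11a, Cd40 and Ltbr thus had a region over a start in this set, while Tnfsf11, Cd40lg, Lta and Ltb had none over a start.

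Sites of the kB consensus in start regions were present at 5 of 5 Rel-family genes and at 8 of 9 genes listed as inhibitors, the exception being Otulin. They were present at 1 of 3 receptors, 0 of 2 transducers, 3 of 11 adaptors and ubiquitin ligases (Traf3, Birc3 and Rnf31), 1 of 7 kinase complex genes (Map3k7), at Tnfrsf11b and not at Tnfsf13b. Among promoter or start regions of similar width, 8.87% to 27.9% held a site for the inhibitors, 7.52% to 24.9% for the adaptors and ubiquitin ligases and 9.92% to 25.4% for the kinase complex genes. For the members the shares were 13% to 29.5% for the 6 regions of the Rel-family genes, 11.3% to 14.5% for the receptors and 15.2% to 17.9% for the transducers. The counts of 3 of 11 and 1 of 7 thus lay near these shares. Counts of 1 of 3 receptors and 0 of 2 transducers are too small to be told apart from them. Of the genes listed as inhibitors, those with a site spanned the widths from Bcl3 with 301 bases to Nfkbia with 1223. These counts describe the list and were not tested.

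**Figure D4:**
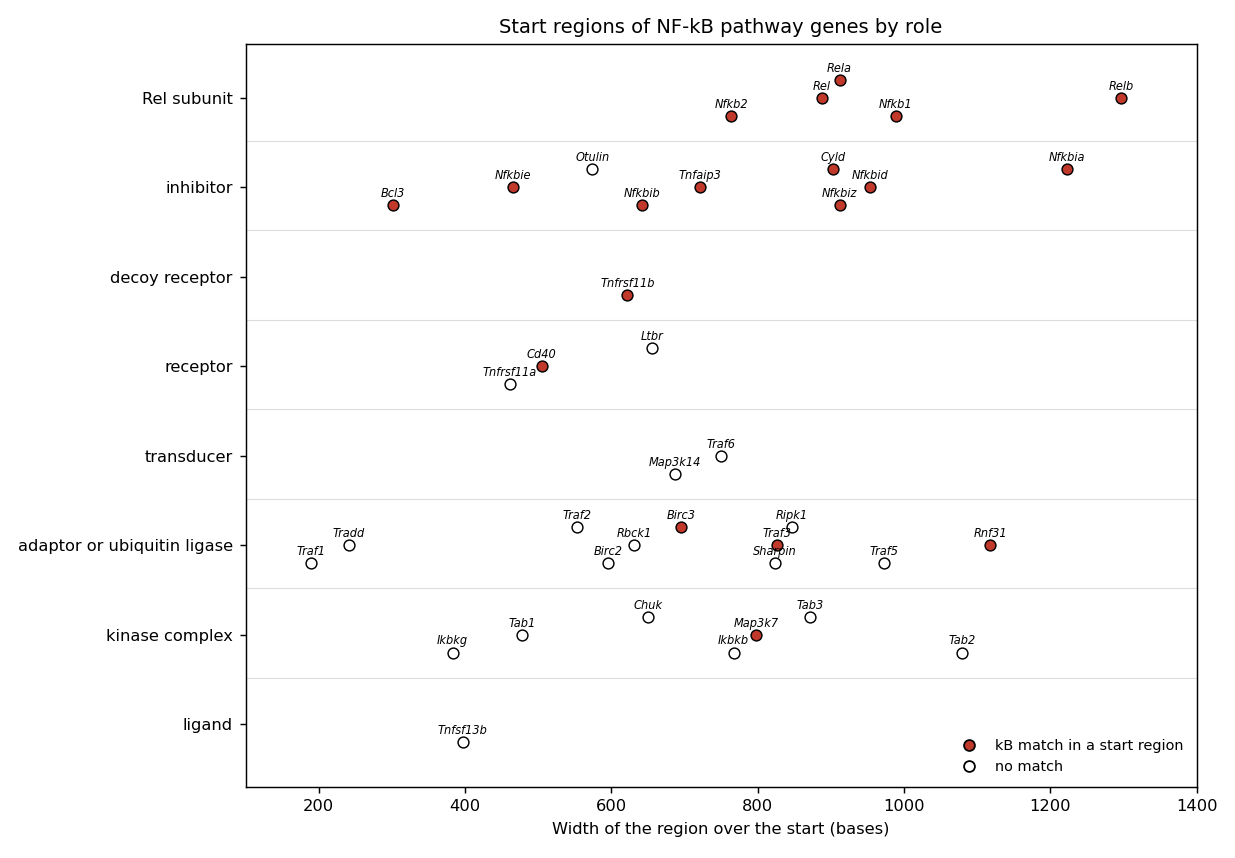
Width in bases of the widest region over a start for the 10 genes and the 29 further pathway genes that have one, by role, with filled points where a start region holds a kB match. Filled points make up all 5 Rel-family genes and 8 of 9 genes listed as inhibitors, and most points of the adaptors and kinases are open.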

How the data were processed

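ATAC-seq libraries of 8 sorted mTEC samples had been sequenced as paired ends. Per the study's methods and the submitters' processing notes, the authors aligned reads to mm10 with Bowtie2, filtered out mitochondrial, multimapping and low-quality reads (SAMtools) and PCR duplicates (Picard), ran MACS2 in broad mode and joined the peaks into one consensus set (bedtools). The multimapping filter leaves fewer regions in repeats, and joining peaks sets region width. Per the file headers, featureCounts 2.0.3 then counted reads. The deposited start, end and width of each region in bases were used. The 8 deposited count columns match no sample label and were not used, so no level, depth or group difference is given.

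No region of 57124 ran past the end of any of 21 chromosomes (0 regions). Genes came from GENCODE M21, with starts from its basic set, and sequence from RefSeq GRCm38.p6. RefSeq promoters are of 300 bases. Motifs were searched as exact matches, also in RefSeq promoters. Position functions and the motif search were tested on simulated data. Members and lists were chosen with earlier results of these data known. Genes named were the 10 members, pathway genes without a promoter region and the 3 with the widest, and neighbours whose promoter holds a region in a window. Other genes, named beside their counts, were chosen after their values were seen. Python 3.11.15, numpy 2.4.6, pandas 2.3.3 and matplotlib 3.10.9 were used.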

Additional observations from a re-analysis of the deposited data

How the results depend on the processing

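Of 20 alternatives over 5 results, 15 stayed within the limits set, which were 1.5 times for counts and 1 SD over genes for the median width. The 72 regions at the 10 genes became 115 with 50 kb either side, 41 in the gene bodies alone and 43 with regions of at least 200 bases. The 12 regions with a kB site in the central 200 bases became 6 in the central 100 bases and 22 in the whole region, and the shares over the whole set moved from 11.1% to 6.69% and 14.6%. Members with a promoter region numbered 7 to 10 under the 4 other definitions, and their median width was 687 to 757 bases. Under the comprehensive annotation Nfkb1 counted through a region of 238 bases at an internal start. Among the marker genes, Lck of the thymocyte list then gained a promoter region of 480 bases. Col1a1 and Pdgfra of the fibroblast list gained promoter regions of 658 and 603 bases. No paired analysis was possible because no value used here belongs to a single sample, and for that reason no sample could be left out in turn. Depth is unknown here, so a missing region, as at the ligand genes, cannot be told apart from one too weak to be called.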

Other observations

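The median share of soft-masked repeat was 2.46% over the 72 regions and 0% over the whole set. Of the 72 regions 33 held no soft-masked base, and 2 were at least 50% repeat. These were an intronic region of 78 bases in Nfkb1, which was 100% repeat, and an intronic region of 152 bases in Rel, which was 55.9% repeat. The most frequent kB word among all matches at the 10 genes was GGGGTTTTCC, with 4 matches, of which 2 lay in the start region of Relb.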
